A study of Mus musculus with 8 samples.

Results

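H3K4me3 and H3K27me3, histone marks of opposite association, were mapped by chromatin immunoprecipitation sequencing in cultured mouse bone marrow-derived MSPCs (mesenchymal stem/progenitor cells) of the genotype Asxl1-/-, and the places that hold both are described here. H3K4me3 regions numbered 14792 on the 19 autosomes, of 15276 in the whole list, and H3K27me3 regions numbered 18447, of 20249. The cells were of the C57BL/6 background, grown in MesenCult medium and taken at passages 5 to 10. The other libraries of the study are H3K4me2 in Asxl1-/- cells, and ASXL1, H3K4me2, H3K4me3 and H3K27me3 in wild-type cells of the same background and passages, which serve here as reference. The sources used here do not give the age of the mice, the part of Asxl1 that was deleted or the number of animals or cultures behind a library. Each mark in each genotype is 1 library, so no value below has a replicate check and no difference was tested. Intervals in brackets are 95% Clopper-Pearson intervals and cover counting error only.

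ASXL1 is a chromatin regulator that partners the deubiquitinase BAP1 and has been linked to Polycomb repression. H3K4me3 is placed at promoters by the COMPASS family of methyltransferases and is known from active and poised genes, while H3K27me3 is placed by Polycomb repressive complex 2 on silent genes. Promoters that carry both are called bivalent, and in stem and progenitor cells they are best known from regulators of lineages that the cell has not entered. In mass cultures, both marks on the same chromatin, marks on different alleles and marks in different cells cannot be told apart.

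A gene counted as marked when a region came within 1000 bp of either of its outermost RefSeq ends, here called gene ends. Of 20665 protein-coding genes on autosomes, 2007 held both marks at the same end in Asxl1-/- cells, which is 9.71% (9.31 to 10.1). H3K4me3 alone was found at 10002 genes (48.4%), H3K27me3 alone at 2733 (13.2%), the marks at different ends at 308 (1.49%) and neither mark at 5615 (27.2%). Promoter sequences of 4 of these genes, taken from RefSeq on GRCm38.p6, which has the coordinates of mm10, show the kind of DNA on which the classes lie. Zfr2 and Hcn2 stand for the longest places with both marks that have a promoter sequence meeting the rule used here, longer ones being passed over for lack of one, Cbarp for the widest H3K4me3 region at a gene with that mark alone, and Cpz for the widest H3K27me3 region at a gene with that mark alone. Each runs 5′ to 3′ from 250 bases before a RefSeq transcription start to 50 bases past it, with CpG dinucleotides in capitals. The start used for Cbarp lies inside the gene, within 1000 bp of its outermost end.
Zfr2, both marks, chr10:81232913-81233212, plus strand: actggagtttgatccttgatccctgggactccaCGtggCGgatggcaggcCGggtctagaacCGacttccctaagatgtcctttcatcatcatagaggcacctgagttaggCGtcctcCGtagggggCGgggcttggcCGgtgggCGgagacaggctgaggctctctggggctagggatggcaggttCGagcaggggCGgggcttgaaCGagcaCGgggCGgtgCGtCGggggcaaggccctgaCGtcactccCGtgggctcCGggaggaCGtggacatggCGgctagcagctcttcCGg
Hcn2, both marks, chr10:79716384-79716683, plus strand: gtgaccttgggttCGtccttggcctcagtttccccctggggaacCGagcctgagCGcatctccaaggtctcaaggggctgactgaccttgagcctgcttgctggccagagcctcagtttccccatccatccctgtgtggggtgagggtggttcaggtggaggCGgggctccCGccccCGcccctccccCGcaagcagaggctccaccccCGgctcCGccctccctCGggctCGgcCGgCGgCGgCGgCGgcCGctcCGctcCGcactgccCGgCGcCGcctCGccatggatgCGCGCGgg
Cbarp, H3K4me3 alone, chr10:80139318-80139617, minus strand: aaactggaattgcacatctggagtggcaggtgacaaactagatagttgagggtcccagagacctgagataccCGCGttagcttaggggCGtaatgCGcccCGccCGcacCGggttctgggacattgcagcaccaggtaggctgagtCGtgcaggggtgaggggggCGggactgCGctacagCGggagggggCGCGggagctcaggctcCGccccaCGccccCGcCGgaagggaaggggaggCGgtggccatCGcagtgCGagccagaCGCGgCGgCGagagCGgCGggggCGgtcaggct
Cpz, H3K27me3 alone, chr5:35525577-35525876, minus strand: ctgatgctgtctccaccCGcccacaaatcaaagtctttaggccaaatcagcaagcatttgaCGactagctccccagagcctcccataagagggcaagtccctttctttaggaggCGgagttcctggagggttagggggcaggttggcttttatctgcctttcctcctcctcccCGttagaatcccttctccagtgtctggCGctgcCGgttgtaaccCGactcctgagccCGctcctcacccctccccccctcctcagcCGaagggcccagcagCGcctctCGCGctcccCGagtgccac
The promoters of Zfr2 and Hcn2 hold 22 and 26 CpG and Cbarp holds 27, whereas Cpz holds 13. Set against the number its base composition would give, the CpG content is 0.717 for Zfr2, 0.668 for Hcn2, 0.817 for Cbarp and 0.505 for Cpz.

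The order of those 4 promoters was also the order of the classes. The median ratio of observed to expected CpG was 0.714 over 1498 genes with both marks and 0.791 over 8083 genes with H3K4me3 alone, and it was 0.309 over 2113 genes with H3K27me3 alone. At genes with neither mark it was 0.174, and over all 16457 genes with a promoter sequence it was 0.597. By the median, genes with both marks thus had CpG-rich promoters, as genes with H3K4me3 alone did, with the middle 50% of ratios from 0.523 to 0.871. The classes are read at gene ends, and the marks need not lie on the promoter measured. Of the 1498 promoters, both marks touched 1122 (74.9%), H3K4me3 alone 189, H3K27me3 alone 144 and neither 43. Over all 1175 promoters touched by both marks the median ratio was 0.733. The letters TATAAA, read on both strands as TATAAA or TTTATA, occurred in 6.74% of the promoters of genes with both marks and in 6.73% of those with H3K4me3 alone. They occurred in 15.2% of promoters of genes with H3K27me3 alone, in 27.6% of those with neither mark and in 13.5% of all promoters. CpG content and these letters are descriptions of the 300-base window and share its base composition.

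**Figure D1:**
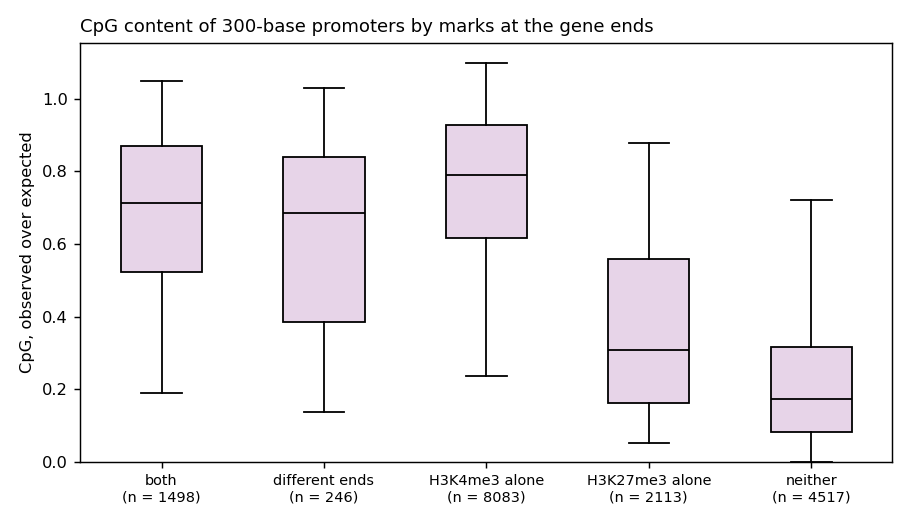
Ratio of observed to expected CpG in 300-base promoters (y axis) for genes of Asxl1-/- cells grouped by the marks at their ends (x axis). The line is the median, the box the middle 50% and the whiskers the 5% and 95% points. The medians are 0.714 for both marks, 0.686 for different ends, 0.791 for H3K4me3 alone, 0.309 for H3K27me3 alone and 0.174 for neither.

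The 2 marks met in many short places. In Asxl1-/- cells they shared 6.54 Mb in 2580 stretches, with a median length of 2200 bp and the middle 50% from 1400 to 3200 bp. This was 9.26% of the 70.6 Mb under H3K4me3 and 3.01% of the 217 Mb under H3K27me3. In wild type the shared length was 7.59 Mb in 3435 stretches, which was 11.3% of the H3K4me3 length and 3.56% of the H3K27me3 length. The length shared in both genotypes was 3.58 Mb, which is 54.8% of the Asxl1-/- total and 47.2% of the wild-type total. Of the stretches in Asxl1-/- cells, 1823 (70.7%, 68.9 to 72.4) lay at the end of a protein-coding gene, 170 lay only at the end of another annotated gene, and 587 (22.8%) lay at no annotated gene end.

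Where the marks met, a narrow H3K4me3 region usually lay within a broad H3K27me3 domain. Of the H3K4me3 regions, 2543 (17.2%, 16.6 to 17.8) touched H3K27me3, and 1634 of these (64.3%) lay wholly inside it. The median width was 3000 bp for H3K4me3 regions that touched H3K27me3, 2400 bp for those wholly inside, and 4600 bp for those that did not touch it. In the other direction, 2351 H3K27me3 regions (12.7%, 12.3 to 13.2) touched H3K4me3, and only 61 of all 18447 lay wholly inside an H3K4me3 region. H3K4me3 covered a median of 20.3% of an H3K27me3 region that it touched. Most of these domains held 1 H3K4me3 region, and 201 (8.55%) held more. The domain with the most, 36.8 kb at Pax3, a regulator of neural crest and muscle progenitors, held 5 H3K4me3 regions with 11.6 kb shared. A domain of 56.6 kb over the ligand genes Wnt6 and Wnt10a held 4, with 12.4 kb shared, and one of 37.2 kb over Hoxb3 to Hoxb8 held 4, with 28 kb shared.

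The share of regions that met the other mark varied with width. Among H3K4me3 regions, 22.1% (18.7 to 25.9) of those up to 1000 bp and 34.1% (31.9 to 36.3) of those of 1000 to 2000 bp touched H3K27me3, compared with 10.6% (9.69 to 11.5) of those of 4000 to 6000 bp and 10.3% (8.12 to 12.7) of those above 10000 bp. Among H3K27me3 regions, 4.7% (2.59 to 7.76) of those up to 2000 bp touched H3K4me3, 14.1% (13.1 to 15.1) of those of 10000 to 20000 bp did, and 35.6% (31.5 to 40) of those above 40000 bp did. For H3K4me3 the share was highest at 1000 to 2000 bp, and for H3K27me3 in the widest regions. A wider region has more length over which it can touch the other mark. The shares are not corrected for this, and its part in the rise for H3K27me3 was not tested. The widest domains were mixed in this respect. The H3K27me3 domain of 158 kb at Aspg and Kif26a held 2 H3K4me3 regions with 9.4 kb shared, and that of 147 kb at Pax2, a regulator of kidney and ear, held 2 with 4.4 kb shared. The domain of 242 kb at Hmx1 and Cpz and that of 148 kb at Wnt7a held none.

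**Figure D2:**
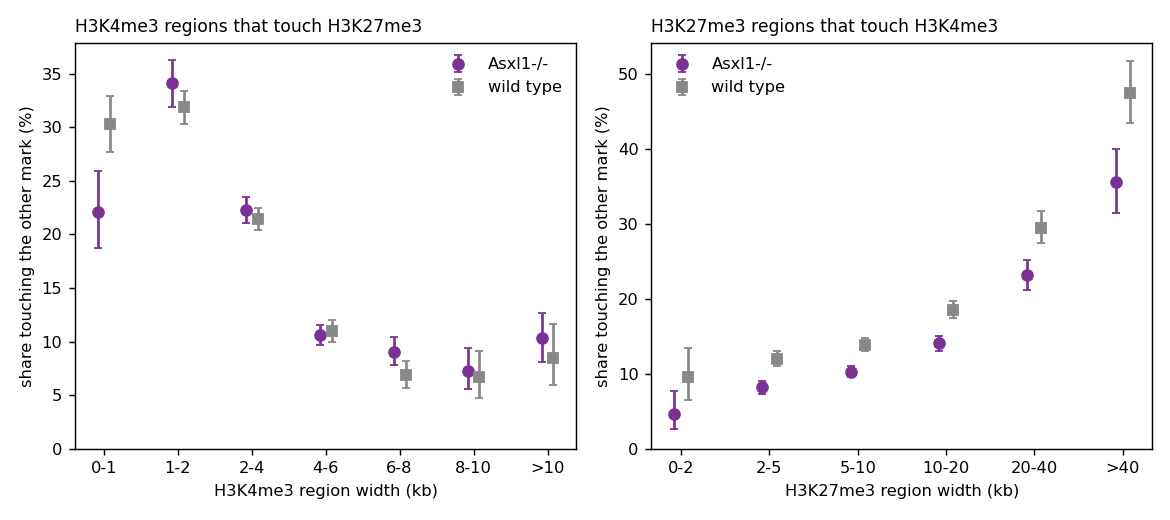
Share of H3K4me3 regions that touch H3K27me3 by H3K4me3 region width (left), and share of H3K27me3 regions that touch H3K4me3 by H3K27me3 region width (right), in kb. Circles are Asxl1-/- cells, squares wild type, 1 library each, and bars are 95% Clopper-Pearson intervals. In Asxl1-/- cells the left share peaks at 34.1% for 1 to 2 kb, and the right share climbs from 4.7% to 35.6%.

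At the gene level, 16.3% (15.6 to 17) of the 12317 genes with H3K4me3 (59.6% of all genes) had H3K27me3 at the same end, and 39.8% (38.4 to 41.1) of the 5048 genes with H3K27me3 (24.4% of all genes) had H3K4me3 there. In wild type, where 59.8% of all genes had H3K4me3 and 27.4% had H3K27me3, these shares were 20.7% and 45.2%. H3K27me3 was at an end of 18.8% (18.1 to 19.5) of genes with H3K4me3 and of 32.7% (31.7 to 33.8) of genes without it. At 43 of the 2007 genes both marks reached the end window without a shared base, and the other 1964 had a shared stretch with a median of 2.6 kb and a range of 0.2 to 14.6 kb. At these genes the H3K4me3 region had a median width of 3.4 kb, compared with 5.4 kb at genes with H3K4me3 alone. The H3K27me3 region had a median of 12.4 kb, compared with 14 kb at genes with H3K27me3 alone. The shared stretch was at least 5 kb at 205 genes, at least 8 kb at 34 and at least 10 kb at 11. Genes with both marks were longer, with a median of 27.4 kb, than genes with H3K4me3 alone, with 22 kb, and all genes, with 17.5 kb.

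Both marks centred on transcription starts. Of 1498 genes with both marks and a known strand, 1219 (81.4%, 79.3 to 83.3) held them at the start, 139 at the far end and 140 at both ends. The start lay inside both marks at 1069 genes. There the H3K4me3 region reached a median of 1.02 kb upstream and 1.9 kb downstream, while the H3K27me3 region reached 4.9 kb and 5.05 kb. H3K4me3 reached further downstream than upstream at 79.6% of these genes and H3K27me3 at 56.3%, so H3K4me3 was the more lopsided of the marks. At 713 of the 1069 genes (66.7%) H3K27me3 extended past H3K4me3 on both sides. At genes with H3K4me3 alone, that mark reached 1.88 kb upstream and 3.27 kb downstream.

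**Figure D3:**
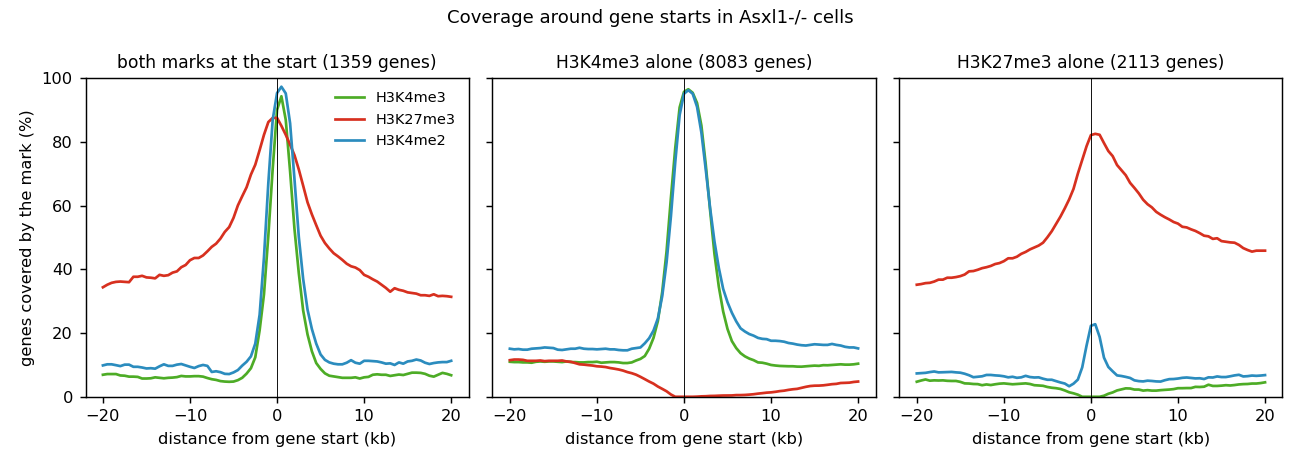
Percent of genes covered by H3K4me3, H3K27me3 and H3K4me2 in Asxl1-/- cells (y axis) by distance from the gene start in kb (x axis, downstream positive), for 1359 genes with both marks at the start, 8083 with H3K4me3 alone and 2113 with H3K27me3 alone. The groups were chosen by H3K4me3 and H3K27me3 at gene ends, so the heights of these at the start follow from the choice. At genes with both marks, H3K4me3 covers 94.4% at 500 bp downstream and 8.76% at 5000 bp, while H3K27me3 covers 85.1% and 50.6%.

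Among readouts that the choice of genes did not use, H3K4me2 differed between genes with and without H3K4me3. It hardly differed between both marks and H3K4me3 alone, whereas wild-type ASXL1 did. H3K4me2, a mark of promoters and enhancers, was at an end of 99.2% of genes with both marks and 99.4% of genes with H3K4me3 alone, against 65.7% of all genes. It was at 32.9% of genes with H3K27me3 alone and at 8.09% of genes with neither mark. ASXL1 of wild-type cells, which bound at an end of 51.4% of all genes, was at 44.4% of the genes that held both marks in Asxl1-/- cells. It was at 90.8% of genes with H3K4me3 alone and 4.57% of genes with H3K27me3 alone. The gap between both marks and H3K4me3 alone was present at each H3K4me3 width. Among genes with an H3K4me3 region of 2 to 4 kb, ASXL1 was at 34.2% (30.9 to 37.7) of those with both marks and 83.2% (81.5 to 84.7) of those with H3K4me3 alone. Above 10 kb the shares were 84.1% (76 to 90.3) and 96.2% (95 to 97.3).

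Transcription factors of development held both marks often. Over 8 lists with 249 genes (Hox, other homeobox, Pax and Sox, forkhead, T-box, GATA, proneural and mesodermal bHLH), 82 genes had both, which is 32.9% (27.1 to 39.1) against 9.71% of all genes. H3K27me3 alone was at 97 of them, H3K4me3 alone at 60, and neither mark at 8. The median shared stretch was 3.2 kb, against 2.6 kb over all genes with both marks, and the median H3K27me3 region of the marked members was 24.8 kb, against 13.2 kb over all genes. Of the 82, 69 held both marks in wild type too, where the lists had 100 such genes.

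Among 85 homeobox genes outside the Hox clusters, 34 had both marks (40%, 29.5 to 51.2), 37 had H3K27me3 alone and 13 had H3K4me3 alone. The longest shared stretches were 5.2 kb at Dlx6 and 5 kb at Dlx1, limb and forebrain regulators, and 5 kb at Lmx1b, which patterns the dorsal limb and lay in an H3K27me3 domain of 102 kb. Dlx6 had the same 5.2 kb in wild type, Dlx1 had 5.6 kb and Lmx1b had 2.6 kb. At the eye regulators Pitx3 and Vax2 the H3K4me3 regions of 4.6 kb and 4 kb lay inside domains of 49.4 kb and 83.2 kb. Irx1 and Msx1 differed from these in that H3K4me3 ran past H3K27me3. Irx1 shared 4.6 kb of its 10.6 kb of H3K4me3, and Msx1 shared 0.2 kb of its 4.4 kb. H3K4me3 alone lay at Prrx1, a regulator of limb mesenchyme, with 15.8 kb.

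Forkhead genes had both marks at 14 of 41 members (34.1%, 20.1 to 50.6), among them Foxh1 (9.2 kb) and Foxj1 (6 kb), which act in nodal signalling and in motile cilia. Foxf1, a regulator of visceral mesoderm, shared 5 kb within an H3K27me3 domain of 123 kb. Foxc1 and Foxc2, mesenchymal regulators, held H3K4me3 alone, at 23.2 and 16.4 kb. Among 27 Pax and Sox genes 7 had both marks, led by the neuronal factor Sox11 with 5.6 kb and the vessel factor Sox18 with 3.4 kb, and 13 had H3K27me3 alone. Sox9, the regulator of cartilage, had H3K4me3 alone at 6.8 kb. The 4 of 14 T-box genes with both marks (28.6%, 8.39 to 58.1) were Tbx2, Eomes, Tbx10 and Tbr1. The 1 of 5 GATA genes (20%, 0.505 to 71.6) was Gata2, with 1.4 kb of H3K4me3 in a domain of 15.8 kb. Among bHLH factors, 7 of 20 proneural genes had both marks, among them Neurog2 with 3.6 kb shared. Of 18 mesodermal genes, Msc and Mesp1 did (11.1%, 1.38 to 34.7), and 10 had H3K27me3 alone. The intervals of the T-box, GATA and mesodermal lists hold the 9.71% of all genes. Twist1, a mesenchymal regulator, had H3K4me3 alone at 7 kb.

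The Hox genes, which set position along the body axis, were in opposite states from cluster to cluster. Of 39 genes 13 had both marks (33.3%, 19.1 to 50.2), 17 had H3K4me3 alone and 9 had H3K27me3 alone. In the Hoxb cluster, 7 of 10 genes (Hoxb2, Hoxb4, Hoxb5, Hoxb6, Hoxb7, Hoxb8 and Hoxb9) had both marks, and 63.6 kb of the 64.4 kb under H3K4me3 was also under H3K27me3, which covered 160 kb of the 174-kb cluster. In the Hoxa cluster H3K4me3 covered 72.9 kb and H3K27me3 7.88 kb, with 1.88 kb shared at Hoxa13, while the other 10 genes had H3K4me3 alone. Hoxc resembled Hoxa, with 89.5 kb, 18.5 kb and 9.27 kb, and both marks at Hoxc12 and Hoxc13. Hoxd had 94.5 kb of H3K27me3 and 4.4 kb of H3K4me3, all of it shared, at Hoxd3, Hoxd8 and Hoxd9. In wild type the shared length was 24.9 kb in Hoxa, 0.6 kb in Hoxb, 5.47 kb in Hoxc and 17.2 kb in Hoxd.

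**Figure D4:**
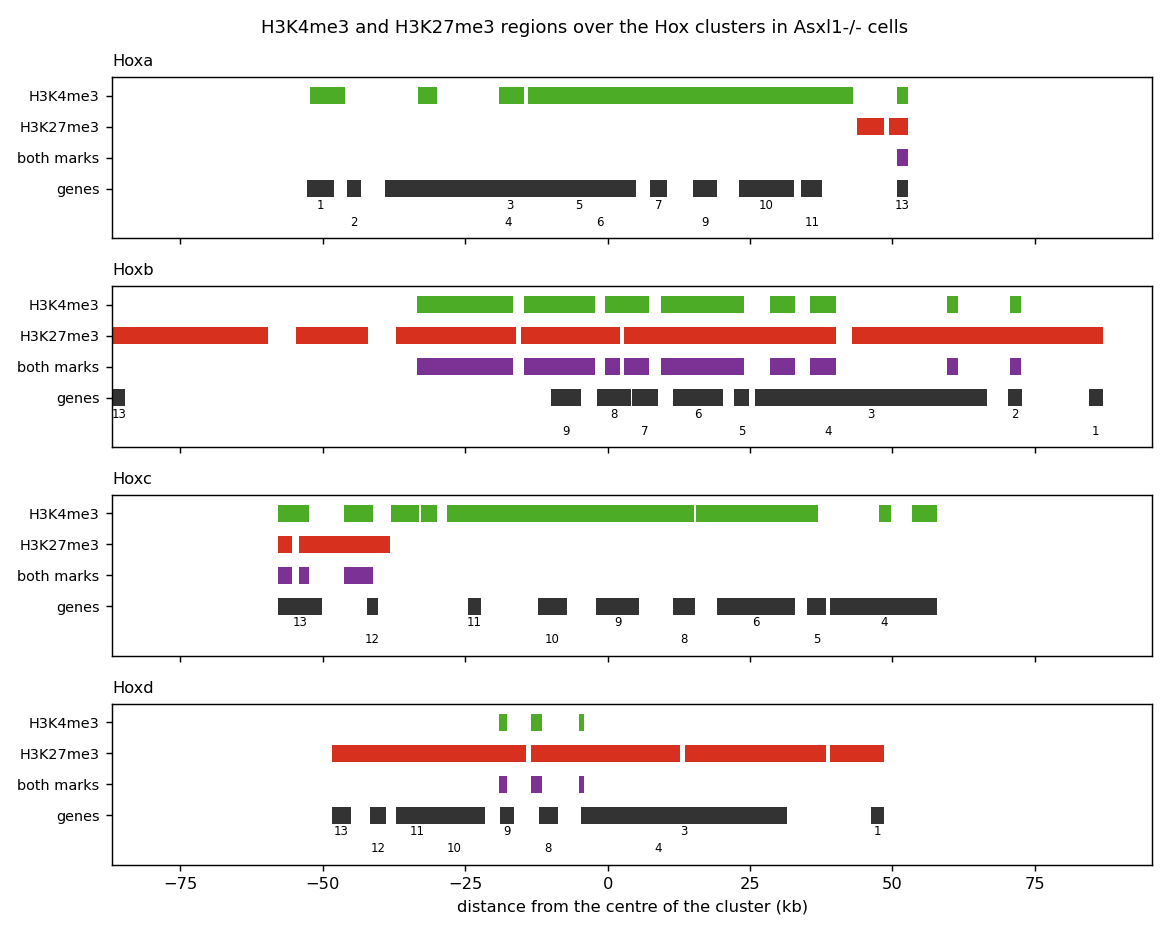
Regions of H3K4me3 (green), H3K27me3 (red) and their shared stretches (purple) over the 4 Hox clusters in Asxl1-/- cells, with genes in black and numbered by paralogue group, by distance from the centre of each cluster in kb (x axis). Regions are clipped at the outermost genes. Shared length is 1.88 kb in Hoxa, 63.6 kb in Hoxb, 9.27 kb in Hoxc and 4.4 kb in Hoxd.

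The longest shared stretches of the genome lay in and around Hoxb. The longest, 16.8 kb at chr11:96247801-96264600, lay between Hoxb13 and Hoxb9 and touched the ends of non-coding genes only, among them Mir196a-1. In wild type H3K27me3 covered all 16.8 kb of it and H3K4me3 covered 0. The next, 14.6 kb at chr11:96290601-96305200, touched the ends of Hoxb5, Hoxb6 and Hoxb7, where wild type had H3K27me3 over 14.6 kb, H3K4me3 over 0 and ASXL1 over 0. H3K4me2 in Asxl1-/- cells covered the whole stretch. A stretch of 12.4 kb at chr11:96266601-96279000 touched Hoxb8 and Hoxb9, with 2.8 kb of wild-type ASXL1.

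Outside Hoxb the longest stretch was 13 kb at chr15:76000801-76013800, at Fam83h, a gene needed for enamel, and its neighbour Iqank1. Wild type had 5.2 kb shared there. At chr10:81228601-81240400, 11.8 kb lay at Zfr2, whose promoter is printed above, and at Atcay, a gene of neurons, against 2 kb in wild type. At chr10:79712201-79722600, 10.4 kb lay at Hcn2, a pacemaker channel gene, and Bsg, whose product escorts lactate transporters, against 2.4 kb in wild type. Cdc42bpg, a kinase of the actin cytoskeleton, had 9.8 kb and Nfatc1, a calcium-dependent transcription factor, had 9.6 kb. Scrt1, a neuronal repressor, and Ap5b1, an adaptor subunit, had 9.4 kb each. A stretch of 9.2 kb lay at Pycr1, an enzyme of proline synthesis, and Myadml2, and another of 9.2 kb lay at Cyhr1, Kifc2 and Foxh1. The class I histocompatibility gene H2-D1 had 9 kb, but it has near-identical relatives, and how reads shared with them were treated is not given in the sources used here. Within these 12 stretches at protein-coding genes, 0 to 8 kb was shared in wild type.

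Signalling genes held both marks about as often as the transcription factors. Over 10 lists with 198 genes of ligands, receptors, antagonists and guidance cues, 68 had both (34.3%, 27.8 to 41.4), 67 had H3K4me3 alone, 42 had H3K27me3 alone and 18 had neither. The median shared stretch was 2.6 kb, equal to that of all genes with both marks, and the median H3K27me3 region of marked members was 15.2 kb. Of the 68, 55 held both marks in wild type, where the lists had 86.

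Wnt ligands had the highest share of the lists, with 11 of 19 (57.9%, 33.5 to 79.7). Wnt10a and Wnt6 shared 7.8 kb and 2.6 kb within the same domain of 56.6 kb, Wnt1 shared 5.6 kb, and Wnt7b shared 3.8 kb within 67.4 kb. Wnt5a, a ligand of limb and skeletal growth, was arranged otherwise, with 9.2 kb of H3K4me3 of which 1.2 kb was shared. Wnt5b had both marks in Asxl1-/- cells, sharing 4.2 kb, and H3K4me3 alone in wild type. H3K27me3 alone lay at Wnt3, Wnt3a, Wnt7a, Wnt8b and Wnt9b, H3K4me3 alone at Wnt2 and Wnt10b, and neither mark at Wnt8a. Frizzled receptors, which bind these ligands, had both marks at Fzd3 and Fzd9 only and H3K4me3 alone at 7 of 10. Their share with both marks was 20% (2.52 to 55.6), an interval that holds the 9.71% of all genes. Of 14 secreted or membrane-bound Wnt antagonists, Notum, Draxin, Sfrp1, Sost and Wif1 had both marks. Sost, the osteocyte gene for sclerostin, had 1.6 kb of H3K4me3 in an H3K27me3 domain of 109 kb, against 24.6 kb of H3K27me3 in wild type.

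The hedgehog pathway had both marks at 7 of 14 genes (50%, 23 to 77). Among ligands, Ihh shared 4.4 kb within a domain of 117 kb and had H3K27me3 alone in wild type, while Shh had H3K27me3 alone in both genotypes. Of the receptors and their partners, Ptch1 shared 3.2 kb, Hhip 2.2 kb and Smo 1.2 kb. Of the transcription factors, Gli1 shared 4 kb and Gli2 2.8 kb, and Gli3 had H3K4me3 alone. In the Notch pathway 9 of 22 genes had both marks (40.9%, 20.7 to 63.6). They included the ligands Dll1 (5.6 kb), Dll3, Dll4 and Jag2, and the targets Hey1 (5.4 kb), Hey2, Hes2, Hes5 and Nrarp. The receptors Notch1, Notch2, Notch3 and Notch4 all had H3K4me3 alone.

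BMP and TGF-beta ligands had both marks at 9 of 28 genes (32.1%, 15.9 to 52.4), led by Inhbb (7.8 kb), Gdf7 (7.4 kb), Inha (6.2 kb) and the bone and fat inducer Bmp4 (4.8 kb). Bmp2 shared 1.8 kb within 13.4 kb of H3K27me3. The BMP antagonists Fst and Nog shared 5.2 kb and 2.8 kb, and 7 of the 12 antagonists had H3K4me3 alone. The antagonists' share with both marks was 16.7% (2.09 to 48.4), an interval that holds the 9.71% of all genes. FGF ligands had both marks at 6 of 20 genes, with 8.8 kb at Fgf11 and 2.4 kb at Fgf23, the phosphate hormone of bone. Fgf7 and Fgf2 had H3K4me3 alone. Guidance genes had both marks at 11 of 38 semaphorins, netrins, slits and their receptors, led by Sema3f with 7 kb, and at 6 of 21 ephrins and Eph receptors, led by Efna3 with 7 kb. Efna2 lay at the edge of the widest H3K4me3 region of the genome, 68.4 kb, which ran from there over Stk11, Cbarp, Atp5d, Midn, Cirbp and Fam174c. H3K27me3 met it at Efna2 over 2.6 kb, and these 6 genes had H3K4me3 alone.

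**Figure D5:**
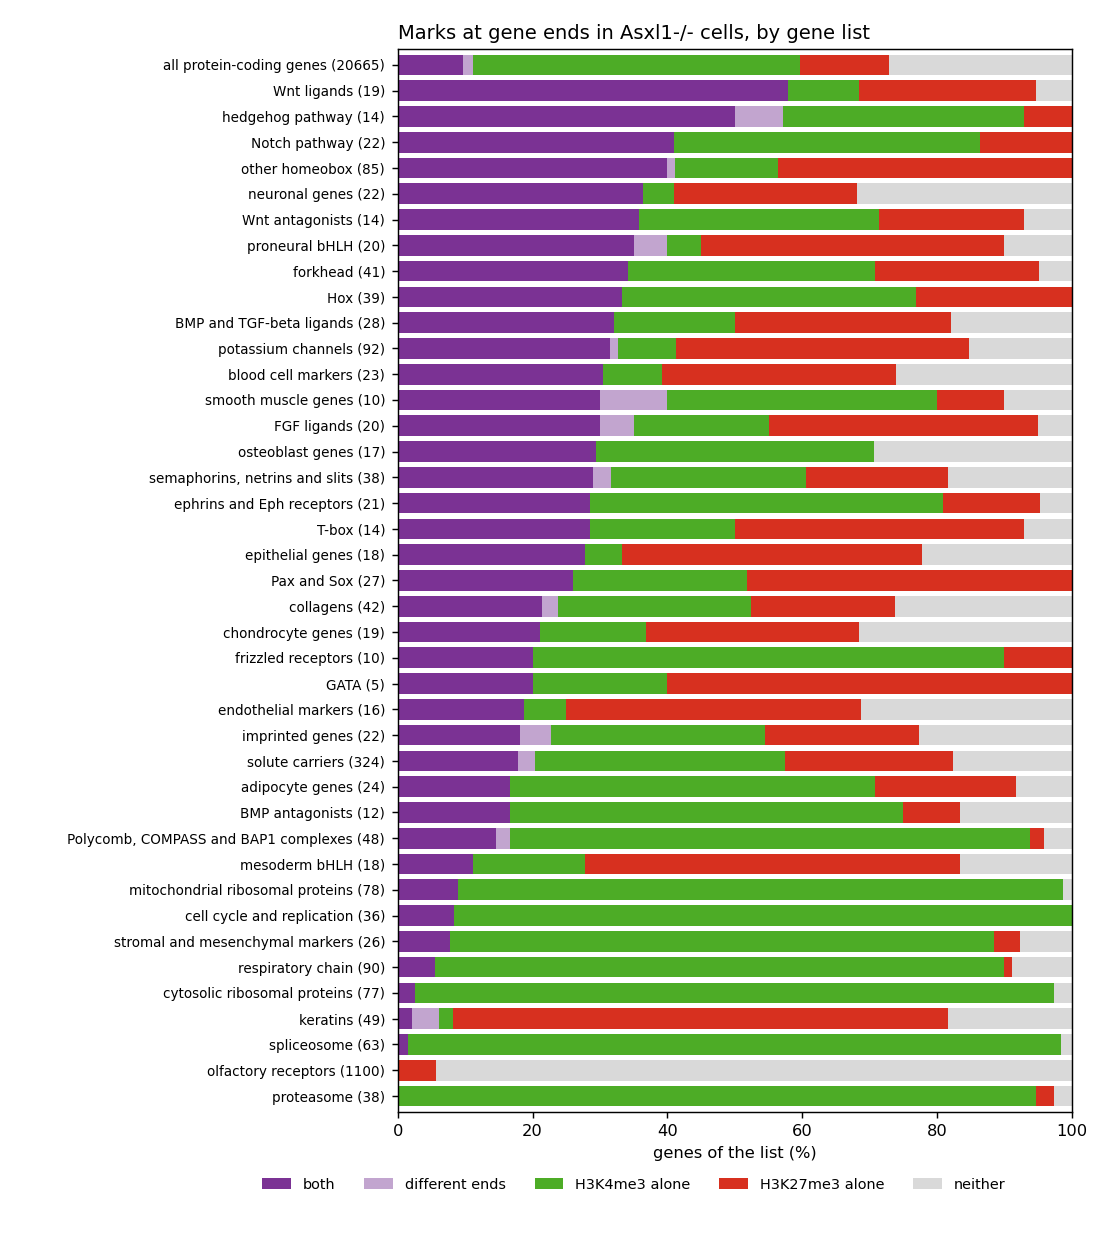
Percent of the genes of each list (x axis) by the marks at their ends in Asxl1-/- cells, with the number of genes in brackets and lists ordered by the share with both marks at the same end. Both marks are at 9.71% of all protein-coding genes, 57.9% of Wnt ligands and 40% of homeobox genes outside the Hox clusters, and at 0 of 38 proteasome genes.

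Gene families of basic cell machinery rarely held both marks. Over 5 lists with 346 genes of the ribosomes, respiratory chain, proteasome and spliceosome, 15 had both marks (4.34%, 2.45 to 7.05), 316 had H3K4me3 alone and 2 had H3K27me3 alone. The proteasome had none of 38. The only 2 of 77 cytosolic ribosomal protein genes were Rpl38, with 0.4 kb shared of 12.8 kb of H3K4me3, and Rpl17, with no shared base. The only spliceosome gene was Sf3a2, with 5.6 kb. In the respiratory chain the longest was 7.6 kb at Ndufa4l2, and 5 of 90 had both marks (5.56%, 1.83 to 12.5). Mitochondrial ribosomal protein genes had both at 7 of 78 (8.97%, 3.68 to 17.6). Both of these intervals hold the 9.71% of all genes. Of the 15 genes, 9 had H3K4me3 alone in wild type and 6 had both marks there.

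Channels and transporters had both marks at a larger share than the 9.71% of all genes, and keratins and olfactory receptors at a smaller one. Of 92 potassium channel genes 29 had both (31.5%, 22.2 to 42), with 8.4 kb at Kcnj4, 6.6 kb at Kcnh2 and 6.4 kb at Kcnma1, and 40 had H3K27me3 alone. Of 324 solute carriers 58 had both (17.9%, 13.9 to 22.5), led by Slc16a11 and Slc16a13 with the same 8.4 kb. Keratins had both marks at 1 of 49 genes (Krt86) and H3K27me3 alone at 36. Of 1100 olfactory receptor genes 1 had both (Olfr94) and 1037 had neither. Collagens had both marks at 9 of 42 genes (21.4%, 10.3 to 36.8), with 4.8 kb at the cartilage collagen Col2a1, while Col1a1, the main collagen of bone, had H3K4me3 alone over 26.2 kb.

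Of 26 stromal and mesenchymal markers 21 (80.8%) had H3K4me3 alone, against 48.4% of all genes, among them Col1a1, Pdgfrb (22 kb), Pdgfra (11 kb), Vim (10.6 kb), Cxcl12 (8.8 kb) and Kitl (6.6 kb). Thy1 and Ngfr held both marks, with 3.8 and 2.2 kb shared, Lepr held H3K27me3 alone over 2 kb, and Lum and Postn held neither. Of the defining blood markers Ptprc, Itgam and Adgre1 held neither mark and Cd3e held H3K27me3 alone. Of the endothelial markers Pecam1 and Tek held neither and Cdh5 held H3K27me3 alone, and of the epithelial ones Cdh1 held H3K27me3 alone over 14.4 kb.

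Lists of lineage genes were short, and their shares with both marks are read against the 9.71% of all genes. The share was 29.4% (10.3 to 56) for osteoblast, 30.4% (13.2 to 52.9) for blood and 36.4% (17.2 to 59.3) for neuronal genes. It was 16.7% (4.74 to 37.4) for adipocyte, 21.1% (6.05 to 45.6) for chondrocyte, 18.8% (4.05 to 45.6) for endothelial and 27.8% (9.69 to 53.5) for epithelial genes, with intervals that hold 9.71%. Of 17 osteoblast genes, Dlx5 (2.8 kb shared), Sost, Tnfsf11 and Alpl (1 kb) had both marks, as had Sp7, the osteoblast factor osterix, with no shared base. Runx2 had H3K4me3 alone over 3.8 kb. Of 24 adipocyte genes, Klf15 (7.4 kb), Prdm16 (5 kb), Zfp423 (5 kb) and Dgat2 (2 kb) had both, and Pparg and Cebpa had H3K4me3 alone. Chondrocyte genes had both marks at 4 of 19. Of 23 blood markers 7 had both, among them Spi1, the myeloid factor PU.1, with 3.4 kb in a domain of 26.2 kb, and Kit and Ikzf1, which had H3K27me3 alone in wild type. Of 16 endothelial markers 3 had both (Sox18, Flt1 and Kdr), of 22 neuronal genes 8 and of 18 epithelial genes 5, among them Epcam with 1.6 kb shared.

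Of 48 genes of the Polycomb, COMPASS and BAP1 complexes 37 (77.1%) had H3K4me3 alone, against 48.4% of all genes, among them Ezh2, Eed, Suz12, Bap1 and Asxl2. Both marks lay at 7 (14.6%, 6.07 to 27.8), an interval that holds the 9.71% of all genes, among them the Polycomb genes Phf19 (4.6 kb), Cbx8 (2.8 kb), Cbx2 (2.2 kb), Pcgf1 (2 kb) and Phc2 (1.4 kb), and Asxl3 (3.4 kb). Asxl1 had the marks at different ends, 6.2 kb of H3K4me3 and 23.2 kb of H3K27me3, with H3K4me3 alone in wild type. They are no check of the genotype, because the deleted part of Asxl1 is unknown here. Of 36 cell cycle and replication genes Ccnd2, Cdkn1c and Bub1 had both marks (8.33%, 1.75 to 22.5) and the other 33 had H3K4me3 alone. Cdkn1c is imprinted and was 1 of 4 imprinted genes of 22 with both (18.2%, 5.19 to 40.3), beside Grb10, Phlda2 and Slc22a18. The intervals of these 2 lists hold the 9.71% of all genes.

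Of the genes with both marks in Asxl1-/- cells, 1495 of 2007 (74.5%, 72.5 to 76.4) had both in wild type, where 12.4% of all genes did. Wild type had H3K4me3 alone at 249 of them (12.4%, 11 to 13.9), against 45.6% of all genes, and H3K27me3 alone at 203 (10.1%, 8.83 to 11.5), against 13.2%. It had the marks at different ends at 38 (1.8% of all genes) and neither mark at 22 (26.9% of all genes). The genes that had H3K4me3 alone in wild type had wider H3K4me3 in Asxl1-/- cells, with a median of 4.6 kb, and wild-type ASXL1 at 71.1% of them. Those that had H3K27me3 alone had narrower H3K4me3, with a median of 2.2 kb, and ASXL1 at 7.88%. Genes with both marks in each genotype lay between, with 3.4 kb and 44.2%. For comparison, wild-type ASXL1 was at 51.4% of all genes. It was at 90.8% of genes with H3K4me3 alone in Asxl1-/- cells and at 4.57% of those with H3K27me3 alone. In the other direction, wild type had 2566 genes with both marks. Of these, 1495 had both in Asxl1-/- cells too, 714 had H3K4me3 alone there and 265 had H3K27me3 alone. Over all genes of Asxl1-/- cells, H3K4me3 alone was at 48.4% and H3K27me3 alone at 13.2%.

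Of the genes with H3K4me3 alone in wild type, the longest shared stretches in Asxl1-/- cells were at Pycr1 (9.2 kb), Pcsk4 and Reep6 (8.8 kb), Pdlim4 (8.4 kb), Ndufa4l2 and Stac3 (7.6 kb), Pald1 (7.2 kb) and Apc2 (7 kb). Pycr1 and Pdlim4 lie on chromosome 11 and the other 6 on chromosome 10. Of 493 genes of chromosome 10 with H3K4me3 alone in wild type, 36 (7.3%) had both marks in Asxl1-/- cells, against 2.64% over all autosomes and 0 of 481 on chromosome 3. H3K27me3 covered 12.4 Mb of chromosome 10 in Asxl1-/- cells and 5.94 Mb in wild type, and 2.4 Mb and 10.8 Mb of chromosome 3. The part of these chromosome-wide lengths in the result was not tested. Of the genes with H3K27me3 alone in wild type, the longest shared stretches were at Hoxb5 and Hoxb6 (14.6 kb), Fam83h (13 kb), Hoxb9 (12.4 kb), Slc16a11 (8.4 kb), the flagellin receptor gene Tlr5 (8 kb), Fam78a (7.2 kb) and the matrix gene Chadl (6 kb). In wild type the H3K27me3 regions at these 8 genes were 8.8 to 161 kb wide. These classes are those of the gene ends, and wild type could share length elsewhere in a stretch. It shared 5.2 kb within the stretch at Fam83h, 2.4 kb at Slc16a11 and 1.2 kb at Tlr5. Within the stretches at Hoxb5, Hoxb6 and Hoxb9 it shared 0.

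The share of H3K4me3 genes with both marks differed between chromosomes. It was 23.3% (19.7 to 27.1) on chromosome 15, 22.2% (18.5 to 26.3) on chromosome 12, 21.8% (18.7 to 25.2) on chromosome 10 and 21.6% (18.7 to 24.8) on chromosome 1. The lowest shares were 6.73% (4.85 to 9.06) on chromosome 3, 9.21% (6.77 to 12.2) on chromosome 13 and 10.8% (7.89 to 14.3) on chromosome 16. In wild type those 3 chromosomes had 22%, 17.8% and 20.5%. H3K27me3 covered less of each of them in Asxl1-/- cells, with 2.4, 4.96 and 4.58 Mb against 10.8, 10.1 and 6.27 Mb. Chromosomes 15, 12, 10 and 1 had shares of 26%, 21.4%, 17.1% and 22.5% in wild type. H3K27me3 covered more of each of these in Asxl1-/- cells, with 12.9, 11.7, 12.4 and 20.1 Mb against 10.7, 6.26, 5.94 and 15 Mb. The part of these lengths in the shares was not tested.

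Genes with the marks at different ends, 308 in all, were mostly marked by H3K4me3 at the start, at 187 of 246 (76%, 70.2 to 81.2) with a known strand. The largest were Bahcc1, with 20.4 kb of H3K4me3 and 14.8 kb of H3K27me3, the kinesin gene Kif5a with 14.6 and 14 kb, the RNA helicase gene Ddx39b with 19.2 and 13.4 kb, Dock3 with 12.4 and 13.4 kb, Dqx1 with 11.8 and 17.2 kb and Lgals2 with 11.8 and 13.4 kb. Of these 6, Bahcc1, Kif5a and Ddx39b had H3K4me3 alone in wild type, and Dock3 had the marks at different ends there too. The widest H3K27me3 at genes with that mark alone was 242 kb at Hmx1 and Cpz, 199 kb at Cyth4, Elfn2 and Mfng, 155 kb at the GABA transporter gene Slc6a11, and 149 kb at the acetylcholine receptor gene Chrna4.

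Both marks were at a smaller share of lncRNA and miRNA genes than the 9.71% of protein-coding genes. H3K4me3 alone was also less frequent there, at 15.9% of lncRNA and 21.4% of miRNA genes against 48.4%. The 2 marks lay at the same end of 497 of 12408 lncRNA genes (4.01%) and of 32 of 1136 miRNA genes (2.82%), and 24 miRNA hairpins lay wholly inside a shared stretch. The mature sequences of 5 of these, chosen after the list was seen because they are well-known miRNAs or lie in long stretches, are given with the seed (bases 2 to 8) in capitals.
miR-10a-5p: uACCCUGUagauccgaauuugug
miR-9-5p: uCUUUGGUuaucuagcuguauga
miR-148a-3p: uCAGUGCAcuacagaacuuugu
miR-203-3p: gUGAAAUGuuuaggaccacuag
miR-1247-5p: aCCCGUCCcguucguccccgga
No seed was shared among these 5. Mir10a lies in the Hoxb cluster and its stretch was 4.6 kb long. miR-9-5p, a miRNA of neurons, has 2 of its gene copies in shared stretches, Mir9-1 with 3 kb and Mir9-3 with 1.4 kb. The stretches at Mir148a, Mir203, known from skin, and Mir1247 were 5.2, 5.8 and 7 kb long.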

How the data were processed

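Peak lists of 7 of the 8 samples were used, and the input library, which has no list, was left out. The submitters' processing notes name BWA, SICER 1.1 and mm10, and the regions are SICER islands. The sources used here give neither the calling settings nor the control. Each deposited list holds a chromosome, a start, an end, a running number and a library name. It holds no count, score or p-value, and the sequencing depth is therefore unknown. Positions lie on a 200-bp grid, with smallest gaps of 400 bp (H3K4me3) and 800 bp (H3K27me3). Without signal values, a region that is missing from 1 list may differ little in signal from 1 that is present, and a weaker library gives fewer or narrower regions.

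Regions were intersected by base on the 19 autosomes. The shared length of 6536400 bp and the 2580 stretches were equal to those of bedtools 2.31.1. Gene ends came from a RefSeq table of GRCm38.p6 without exons or strand. Strand and promoter sequence were taken from a RefSeq promoter table for 16457 of the 20665 genes, using the promoter nearest the gene start, so exons, introns and untranslated regions were not assigned. A printed promoter had to start within 1000 bp of a gene end. Gene widths are those of whole regions, the widest at either end of the gene, so a shared stretch can belong to a narrower one. Of the genes with both marks, 704 (35.1%) had another protein-coding gene end within 2000 bp, as had 33.2% of all genes, and such genes can share a region. Percentages carry exact Clopper-Pearson intervals. Named genes were the 12 longest shared stretches at protein-coding genes, the widest regions of each class, the longest stretches by wild-type class, and members of the gene lists by shared length, leaving out genes with only a clone or predicted name. Other members named with 1 mark were chosen after their values were seen. Some genes that these rules take are not named here, while all counts include them. The members and the 40 lists were chosen with earlier results of these data known. Alternatives changed the window, the gene end, the overlap, the regions, the chromosomes and the gene set. The procedure was tested on simulated regions. Python 3.11.15 with pandas 2.3.3 and scipy 1.17.1 was used.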

Additional observations from a re-analysis of the deposited data

Results flagged for a closer look

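The X chromosome was left out of the comparison of autosomes, and it held 138 protein-coding genes with both marks at the same end in Asxl1-/- cells, of 966 genes. These were 36.2% of its 381 genes with H3K4me3, against 16.3% on autosomes. In wild type 52 of 382 genes (13.6%) held both. The length shared on X was 560 kb in Asxl1-/- cells, which was 31.6% of the H3K4me3 length, and 100 kb (6.43%) in wild type. The difference between the genotypes has no replicate check. The sex of the mice behind each library was not examined here, and its part in this difference was not tested.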

How the results depend on the processing

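The share of H3K4me3 genes with both marks, 16.3%, was 14.9% with a 500-bp window, 18.7% with 2000 bp, 14.3% at transcription starts only, 15.2% for shared stretches of at least 1000 bp, 17.1% without chromosomes 3, 4, 10, 13 and 14, and 19.4% for genes with no neighbouring gene end within 2000 bp. The count of 2007 genes was 1303 with the last setting, which tests fewer genes, and otherwise within 1.5 times, except when each list was limited to the wider 50% of its regions. That limit gave 464 genes, 5.68% of H3K4me3 genes, 3.68% of the H3K4me3 length, 1.12% of the H3K27me3 length and a median shared length of 4.4 kb, and it leaves out the narrow H3K4me3 regions. The H3K4me3 length share of 9.26% was 9.07% for stretches of at least 1000 bp, 9.81% with X and 9.61% without the 5 chromosomes, and the H3K27me3 length share of 3.01% was 2.95% for stretches of at least 1000 bp and 3.05% with X. Added after the data were seen, the shares of 6 lists ran over 10 alternatives from 10.6 to 44.7% for other homeobox genes, 10.5 to 62.5% for Wnt ligands, 8.7 to 34.8% for potassium channels, 0 to 5.26% for cytosolic ribosomal proteins, 0 to 2.63% for the proteasome and 0 to 3.17% for the spliceosome, the low ends of the first 3 from the wider 50% of regions. No paired analysis was possible because each mark has 1 library per genotype.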
